A study of Mus musculus with 13 samples.

Results

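Claudins and their partner proteins of the tight junction were followed in mouse primary keratinocytes that carried a retroviral fusion of DNp63alpha, an isoform of the epidermal transcription factor p63, with an estrogen receptor domain that tamoxifen activates. The genes were Cldn1, Cldn3, Cldn4, Cldn7, Cldn8, Ocln, Tjp1, Cgn and F11r, chosen by name, with every probe set that the platform table gave to only 1 of them. Earlier results of these data were known when the genes were chosen, so shares of all probe sets beside their counts are a description. Of these 9 genes, 8 were measured, by 15 of 20393 probe sets named to 1 gene, and Cgn had no such probe set. The series holds 13 Affymetrix arrays of total RNA, 1 for untreated cells and 1 for every 20 min from 20 to 240 min after tamoxifen. All cultures, the untreated one included, carried the fusion. Cells without it and a course without tamoxifen were not analysed here, and the mouse strain and age are not given in the sources used here. With 1 array at each time, the scatter of neighbouring arrays is the only measure of error. Whether each array had a culture of its own is not stated, so the p-values reflect only how these arrays scatter, which may be technical.

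Tight junctions are belts of membrane proteins that seal the space between neighbouring epithelial cells. Claudins form their strands, occludin and junctional adhesion molecules lie in the membrane with them, and scaffold proteins such as ZO-1 tie the strands to the actin cytoskeleton. In the epidermis they lie in the granular layer, and mice without claudin-1 die shortly after birth through loss of water across the skin. Proliferating basal keratinocytes, which are marked by keratins 5 and 14, carry p63.

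Claudin and partner transcripts were lower in the 9 arrays from 80 min than in the 4 arrays up to 60 min: all 11 probe sets above the lowest 25% of mean level passed the test as lower, where 15.2% of all 15295 probe sets above that level did and 12.4% of all probe sets. Cldn3 and Cldn4 had the largest differences, being lower by 1.77 to 1.84 fold and by 1.60 fold, Cldn7 and Cldn1 stood between, and Ocln, Tjp1 and F11r were lower by 1.16 to 1.23 fold. Cldn8, close to the lower end of the array, was the only gene with a higher call. The boundary between 60 and 80 min was placed there because earlier results on these same arrays showed many genes to change at it, so its test is no independent evidence of a step. In bulk RNA, fewer cells of a type and less RNA per cell cannot be told apart.

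**Figure D1:**
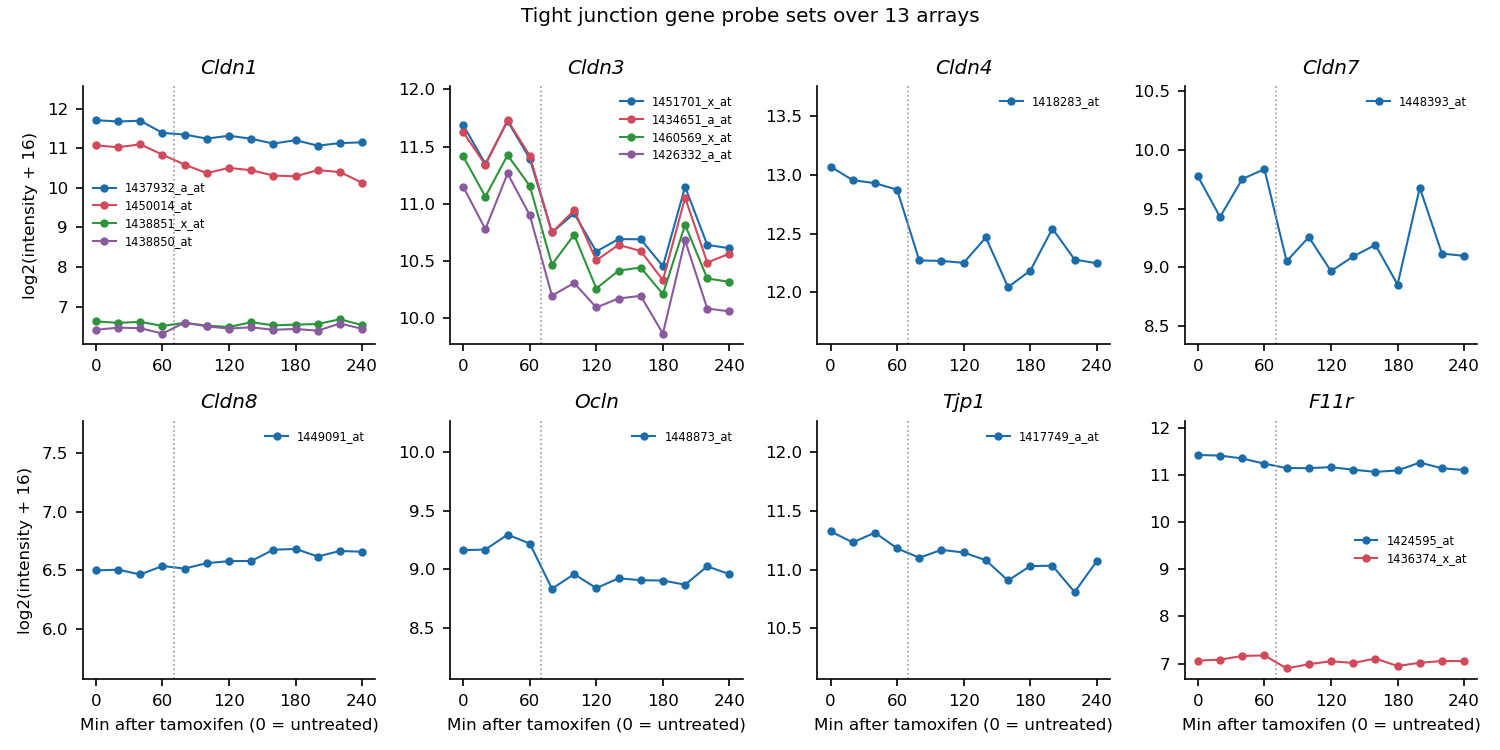
Log2(intensity + 16) of each probe set against minutes after tamoxifen, with 0 for the untreated array, 1 point per array and 1 panel per gene. The dotted line lies between the 60 and 80 min arrays. Panels have separate vertical ranges. All 4 probe sets of Cldn3 and the single one of Cldn4 drop at the line. The bright probe sets of Cldn1 decline over more of the course, while its dim ones stay nearly flat. Cldn3 and Cldn7 stand high again at 200 min.

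Claudin-4 lines the paracellular pores and, with claudin-3, serves as a receptor for the enterotoxin of Clostridium perfringens. The probe set of Cldn4 (1418283_at) had a lowest, median and highest intensity of 4213, 4920 and 5957 in the 9 arrays from 80 min, against 8596 in untreated cells and 7936, 7796 and 7497 at 20, 40 and 60 min. All later arrays lay below all earlier ones, and the highest later value was that at 200 min. The difference was -0.67 ± 0.0677 on the log2 scale (SE), a 1.60-fold lower level (limma, adjusted p = 3.67e-06). The largest fall between consecutive arrays was from 60 to 80 min, -0.60, after smaller falls at each earlier time, and from 80 to 240 min the slope was 0.012 per hour (adjusted p = 0.948).

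Cldn3 was read by 4 probe sets, which gave almost the same course. The brightest (1451701_x_at) had a lowest, median and highest intensity of 1385, 1634 and 2252 in the arrays from 80 min, against 3286 in untreated cells and 2591, 3364 and 2678 at 20, 40 and 60 min. Later and earlier arrays did not overlap in any of the 4 probe sets. Their differences ran from -0.82 to -0.88 on the log2 scale, 1.77 to 1.84 fold lower, with adjusted p between 2.44e-05 and 4.98e-05. As with Cldn4, the drop between 60 and 80 min was the largest between consecutive arrays in all 4, from -0.65 to -0.71. Within the earlier arrays the 20 min value was the lowest, and within the later ones the 200 min value was the highest.

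Claudin-1 is the main sealing claudin of the epidermis. The probe set 1437932_a_at had a lowest, median and highest intensity of 2133, 2350 and 2594 in the arrays from 80 min, against 3344 in untreated cells and 3266, 3311 and 2673 at 20, 40 and 60 min. The probe set 1450014_at had 1105, 1338 and 1524 in the same later arrays, against 2146, 2074, 2184 and 1819 in the earlier ones. In both, the groups did not overlap, and the 60 min array was already the lowest of the earlier 4. The difference between later and earlier arrays was -0.42 ± 0.0609 (SE) for 1437932_a_at, 1.33 fold, and -0.62 ± 0.0699 for 1450014_at, 1.54 fold. Both passed the test (limma, adjusted p = 1.04e-04 and 9.74e-06). As a straight line over all 13 arrays, the fitted change over 4 h was -0.64 and -0.89, or 1.55 and 1.86 fold lower (adjusted p = 0.000186 and 0.000189). The other Cldn1 probe sets, 1438850_at and 1438851_x_at, lay in the lowest 25% of mean level, between 63.7 and 86.4 on every array, and passed no test.

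Claudin-7 sits largely on the basolateral side of epithelial cells. Its probe set (1448393_at) had a lowest, median and highest intensity of 447, 532 and 804 in the arrays from 80 min, against 861 in untreated cells and 674, 847 and 898 at 20, 40 and 60 min. The groups overlapped through the 200 min array, which exceeded the 20 min one. The difference was -0.55 ± 0.113 (SE), 1.47 fold (limma, adjusted p = 0.00174). The straight line over time had an adjusted p of 0.0733.

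Claudin-8 is known from the renal tubule, where it recruits claudin-4 to the junction. Its probe set (1449091_at) ranged from 75.4 to 86.6 with a median of 82.1 from 80 min, against 74.4, 74.8, 72.3 and 76.8 in the untreated, 20, 40 and 60 min arrays. This is a dim probe set, at percentile 4.01 of mean level, and the groups overlapped. Its straight line gave a rise of 0.21 log2 units in 4 h, 1.15 fold (limma, adjusted p = 0.000657), and by 0.11 ± 0.031 (SE) between later and earlier arrays (adjusted p = 0.0124).

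The partner genes had smaller differences. Occludin, a membrane protein of the strands, had an Ocln intensity of 441, 464 and 505 (lowest, median, highest) from 80 min, against 558 in untreated cells and 560, 613 and 581 at 20, 40 and 60 min. The groups did not overlap, and the later arrays stayed within a narrow band. Its difference was -0.30 ± 0.0442 (SE), 1.23 fold (limma, adjusted p = 1.16e-04), while the straight line had an adjusted p of 0.0535. Tjp1 encodes ZO-1, the scaffold under the strands, and had 1778, 2138 and 2286 from 80 min, against 2552 in untreated cells and 2389, 2532 and 2306 at 20, 40 and 60 min. Its later arrays also lay below all the earlier ones, the highest later value being that at 100 min. The difference was -0.22 ± 0.0573, 1.17 fold (adjusted p = 0.00819), and the straight line gave -0.38 over 4 h (adjusted p = 0.00192). F11r encodes the junctional adhesion molecule JAM-A, and its bright probe set (1424595_at) had 2134, 2253 and 2450 from 80 min, against 2742 in untreated cells and 2718, 2604 and 2409 at 20, 40 and 60 min. Here the 200 min array stood above the 60 min one, so the groups overlapped. The difference was -0.22 ± 0.0406, 1.16 fold (adjusted p = 8.27e-04). The dim F11r probe set (1436374_x_at) had a difference of -0.11 with an adjusted p of 0.0461. With single arrays left out, that adjusted p ran from 0.0267 to 0.15.

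**Figure D2:**
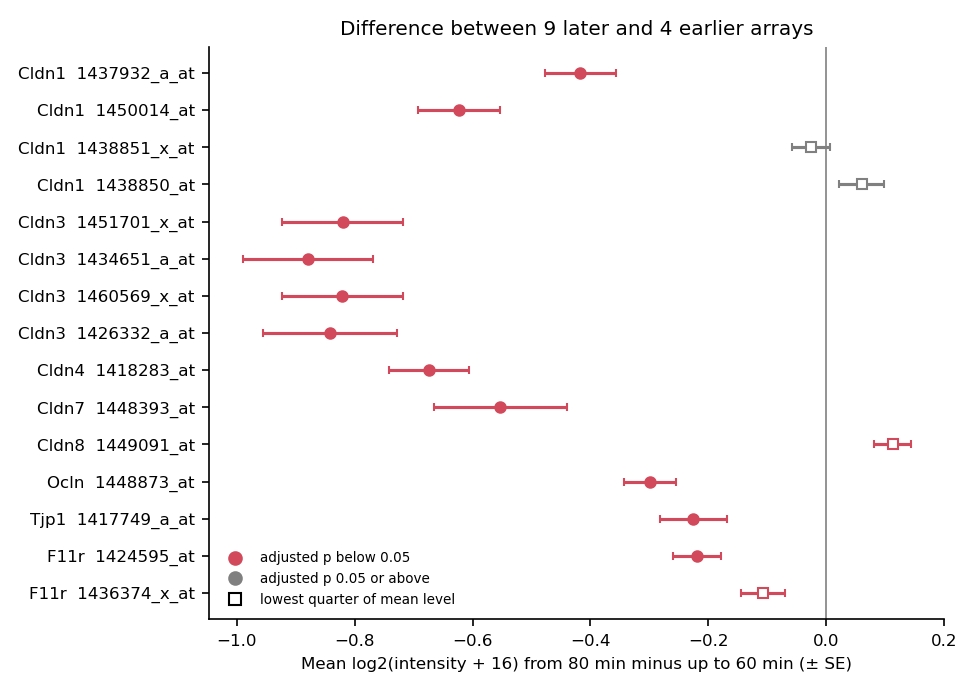
Mean log2(intensity + 16) of the 9 arrays from 80 min minus that of the 4 arrays up to 60 min, 1 row per probe set, with bars of 1 SE from the limma fit. Filled circles are probe sets above the lowest 25% of mean level and open squares those in it. The Cldn3 probe sets lie furthest left, between -0.82 and -0.88, and Tjp1 and F11r (1424595_at) at -0.22.

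Over all 15 probe sets, 12 were lower and 1 higher from 80 min, where 12.4% and 12.7% of all 20393 probe sets were. In 9 of the 15, all 9 later arrays lay below all 4 earlier ones, against 6.73% of all probe sets, and in none did they lie above, against 7.18%. The straight line over time called 9 lower and 1 higher, where 10.2% and 12.2% of all were. A natural cubic spline of time called 10, against 12% of all. Counted by gene, with the probe set of the highest mean, 7 of 8 genes were lower and 1 higher across the 60 to 80 min boundary, where 13% and 13.4% of 12394 genes were. Their median difference was -0.36, beside -0.0038 over all genes.

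A comparison that leaves out the untreated array set the 4 arrays from 180 to 240 min against the 4 from 20 to 80 min. It called 6 member probe sets lower and 1 higher, where 5.1% and 6.57% of all probe sets were called. The 6 were both bright Cldn1 probe sets (adjusted p = 0.00793 for 1437932_a_at and 0.00585 for 1450014_at), Cldn4 (adjusted p = 0.0432) and 3 of the 4 of Cldn3. Tjp1 had an adjusted p of 0.0571 and Ocln of 0.160. The count depended on single arrays: it was 2 without the array at 20, 40, 60, 180 or 220 min, 3 without that at 240 min and 11 without that at 80 min.

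The interval of the largest fall was not the same in all genes. In 7 of the 11 probe sets above the lowest 25%, all of Cldn3, Cldn4, Cldn7 and Ocln, the largest fall between consecutive arrays came between 60 and 80 min, which was so for 16.9% of all probe sets and 18.5% of those above that level. For Cldn1 1437932_a_at it came between 40 and 60 min, by -0.31, with a change of -0.043 from 60 to 80 min. For Cldn1 1450014_at it came between 220 and 240 min, by -0.27, and the change from 60 to 80 min was -0.25. Among the 9 arrays from 80 min alone, Cldn1 had slopes of -0.083 (1437932_a_at) and -0.10 (1450014_at) per hour and Tjp1 of -0.073, with adjusted p of 0.269, 0.324 and 0.423. In that limma fit no member probe set was called, and 0.0147% of all probe sets were called. At an unadjusted p under 0.05, 2 of the 15 were lower and 1 higher, where 11.9% of all probe sets passed in either direction. These data therefore did not show a further decline after 80 min past the threshold for any of these genes.

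The sizes of the changes were compared by the ratio of 2 genes within each array, with an exact two-sided permutation test over the 715 ways to split 13 arrays into 9 and 4, adjusted over all 21 pairs of the 7 genes other than Cldn8. The test treats arrays as exchangeable, although they follow each other in time, and it inherits the chosen boundary. The smallest p it can give is 0.0014. Cldn3 fell more than Tjp1, F11r and Ocln, by a further -0.60, -0.60 and -0.52 on the log2 scale (adjusted p = 0.00734, 0.00734 and 0.0147). Cldn4 likewise fell more than the same 3 genes, by -0.45, -0.46 and -0.38 (adjusted p = 0.00734, 0.00734 and 0.0147). For Cldn3 and Cldn4 against Tjp1 and F11r, the ratios of later and earlier arrays did not overlap. Cldn1 fell more than Tjp1 and F11r, by -0.19 and -0.20 (adjusted p = 0.0196 for both). Cldn3 fell more than Cldn7, by -0.27 (adjusted p = 0.0196).

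Cldn3 and Cldn4, next to each other among the protein-coding genes of chromosome 5, differed by -0.15 ± 0.100 (SE), which was not past the threshold (exact permutation, adjusted p = 0.231). Tjp1 and F11r differed by -0.0065 ± 0.0504 (adjusted p = 0.929). In all, 12 of 21 pairs passed and 9 did not, and the count was 6 with either the untreated or the 40 min array left out and 14 with the 200 min one left out. Cldn3 and Cldn4 against Ocln, Tjp1 and F11r passed in all 18 alternatives tried, Cldn1 against Tjp1 and F11r in 16 each and Cldn3 against Cldn7 in 15. Cldn1 against Cldn3 and Cldn4 was not stable: with 1437932_a_at the differences were 0.40 and 0.26 (adjusted p = 0.0382 and 0.0441), but these pairs passed in only 7 and 5 of the 18 alternatives. With 1450014_at the differences were 0.20 and 0.050 (adjusted p = 0.170 and 0.623). With 1437932_a_at kept, adjusted p reached 0.0868 for Cldn3 without the 40 or the 60 min array and 0.147 for Cldn4 without the 60 min array.

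Single arrays moved some of these genes and not others. At 200 min, the 4 Cldn3 probe sets stood 0.54 to 0.71 log2 units above the mean of the 180 and 220 min arrays and Cldn7 stood 0.69 above it. At most 0.113% of all probe sets stood as high by this measure. Cldn4 stood 0.31 above its neighbours, while Cldn1 (1437932_a_at) stood at -0.10 and Ocln at -0.096. At 20 min, Cldn3 lay -0.34 to -0.43 and Cldn7 -0.33 from the mean of the untreated and 40 min arrays, and Cldn4 lay -0.045 from it. The swings were thus shared by Cldn3 and Cldn7 and were small in Cldn1 and Ocln.

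Of the keratins of simple, single-layered epithelia, Krt7, Krt8 and Krt18 moved in the same arrays. Krt8 stood 0.79, Krt18 0.63 and Krt7 0.46 above their neighbours at 200 min, and Krt8 lay -0.57 from them at 20 min. Across the 60 to 80 min boundary Krt8 differed by -0.82 (adjusted p = 0.0011), Krt7 by -0.64 (adjusted p = 0.000278) and Krt18 by -0.52 (adjusted p = 0.00299). Of the 5 markers of simple epithelium 3 were lower and none higher, where 13% and 13.4% of all 12394 genes were. Krt19 and Krt20, at percentiles 27.0 and 11.1 of mean level, differed by 0.047 and 0.032 and were not called. At 200 min they stood at 0.29 and -0.035 from their neighbours. The summed intensity of the 5 markers was 2930 to 4887 from 80 min, against 4310 to 5908 up to 60 min. Whether a changing share of such cells had a part in the levels of the claudins was not tested. Without the arrays at 200 and 220 min, Cldn3, Cldn4 and Cldn7 kept their calls across the boundary.

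**Figure D3:**
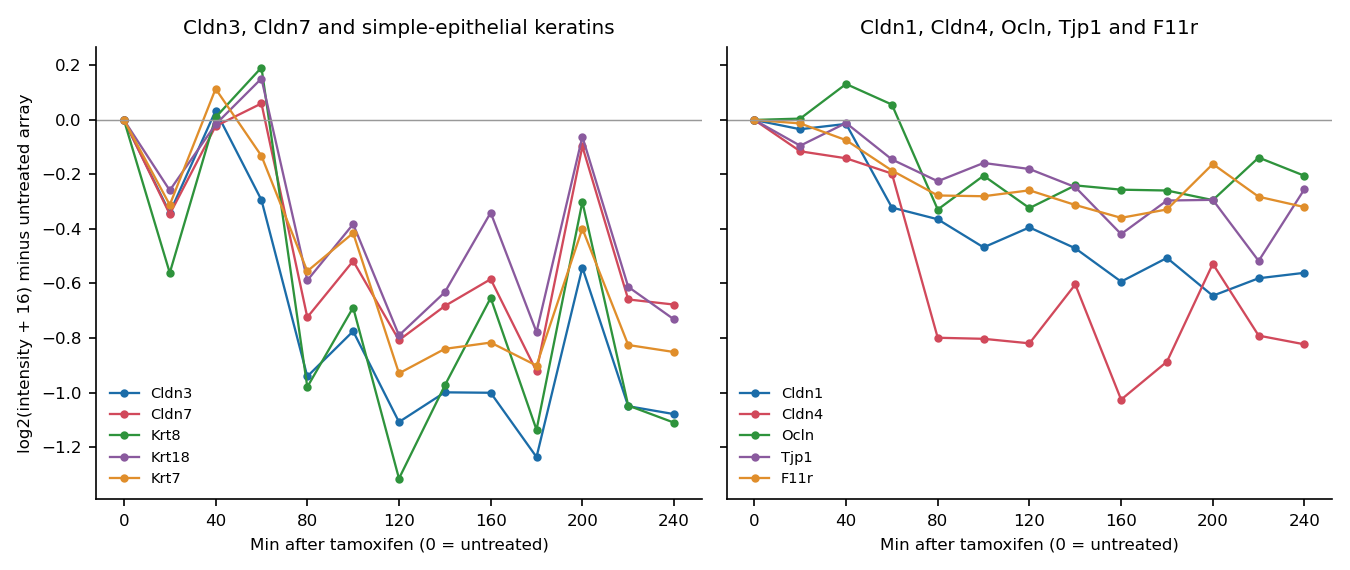
Log2(intensity + 16) of each array minus that of the untreated array, against minutes after tamoxifen. The left panel has Cldn3, Cldn7, Krt8, Krt18 and Krt7, which are low at 20 min and high at 200 min, and the right panel has Cldn1, Cldn4, Ocln, Tjp1 and F11r, by the probe set of the highest mean. In the right panel Cldn4 is the lowest line at every time from 80 min except 200 min.

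The sequence before the start of 3 claudins is shown because in each of them all arrays from 80 min lay below all earlier ones (in both bright probe sets of Cldn1), although the intervals of their largest falls were not all the same. The 250 bases before the annotated start were taken from RefSeq (GRCm38.p6), for Cldn1 at chr16:26371840-26372089 (minus strand), for Cldn3 at chr5:134985964-134986213 (plus strand) and for Cldn4 at chr5:134946935-134947184 (minus strand). They are written 5′ to 3′ along the gene, and capitals mark the matches to the motifs named below.
Cldn1: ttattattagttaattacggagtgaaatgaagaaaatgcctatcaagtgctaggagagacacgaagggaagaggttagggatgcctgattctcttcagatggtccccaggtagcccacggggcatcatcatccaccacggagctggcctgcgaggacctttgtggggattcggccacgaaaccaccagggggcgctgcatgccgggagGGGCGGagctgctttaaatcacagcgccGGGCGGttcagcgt
Cldn3: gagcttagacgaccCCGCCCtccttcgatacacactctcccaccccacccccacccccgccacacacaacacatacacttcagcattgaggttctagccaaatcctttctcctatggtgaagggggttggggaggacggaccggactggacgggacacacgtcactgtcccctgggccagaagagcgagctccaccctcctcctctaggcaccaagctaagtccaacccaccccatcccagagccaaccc
Cldn4: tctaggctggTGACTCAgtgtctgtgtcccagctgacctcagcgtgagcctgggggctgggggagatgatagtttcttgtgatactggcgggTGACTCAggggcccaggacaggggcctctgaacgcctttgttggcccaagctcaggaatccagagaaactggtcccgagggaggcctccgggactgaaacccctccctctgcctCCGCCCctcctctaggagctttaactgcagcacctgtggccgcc
The motifs searched, on both strands, were the AP-1 site TGANTCA, the grainyhead site AACNNGTT, the GC box CCGCCC, the TATA box TATAAA and the half-site of the p53 family. Cldn4 held 2 AP-1 matches, with first bases 240 and 158 bases before the start, and 1 GC box. Cldn1 held 2 GC boxes and Cldn3 held 1, and neither held a match to the other motifs. Among 10 windows of 8 genes (all but Cldn8), since Cldn7 and Ocln have 2 starts each, AP-1 matched in 2 windows (Cldn4 and F11r), the GC box in 9, the grainyhead site in 1 (Cgn), the p53-family half-site in 1 (Tjp1) and the TATA box in none. No matches overlapped. Of all 32851 windows of this length, 6.75% held AP-1, 3.64% the grainyhead site, 32.7% the GC box, 12.4% the TATA box and 7.13% the p53-family half-site. A match is a string of letters, and a missing one says only that the letters are not in this window.

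Other genes of the tight junction moved in both directions, with more called lower than higher. Of 46 listed symbols 37 were on the array, 17 of them above the 40th percentile of mean level. By the straight line, 6 of the 37 were lower and 2 higher, with a median 4 h change of -0.032, beside 5 lower and 1 higher of the 8 member genes with a median of -0.48. Over all genes 10.8% were lower and 13.1% higher, with a median of -0.0021. Across the 60 to 80 min boundary 9 of the 37 were lower and 1 higher. Of all genes 13% and 13.4% were, and of those above the 40th percentile 18.3% and 19.4%. Pard6b, a polarity scaffold of the Par complex, fell by 0.94 on the log2 scale, 1.91 fold (adjusted p = 0.00213), while its paralog Pard6g rose by 0.56, 1.48 fold (adjusted p = 0.00218). The claudin Cldn23 fell by 0.76, 1.70 fold (adjusted p = 0.000785). Cxadr, the adhesion protein that also serves as the coxsackievirus and adenovirus receptor, fell by 0.34, 1.27 fold (adjusted p = 0.00492). Marveld2, which encodes tricellulin and is the protein-coding neighbour of Ocln, was lower from 80 min by -0.20 (adjusted p = 0.0321).

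**Figure D4:**
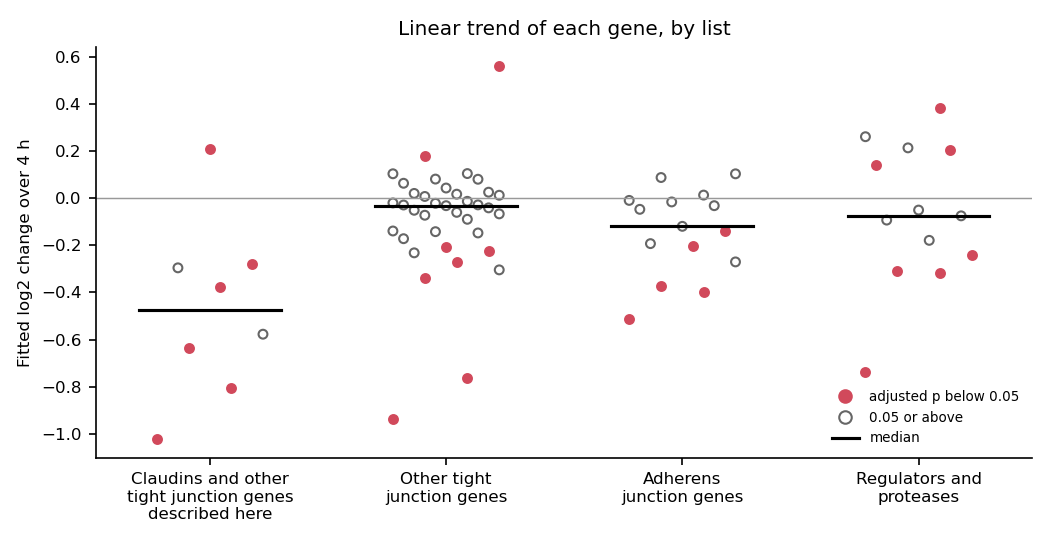
Fitted log2 change over 4 h of each gene (highest-mean probe set) in 4 lists. Filled points passed an adjusted p of 0.05 in limma, open points did not, and the bars are medians. The median is -0.48 in the claudins and tight junction genes described here and between -0.12 and -0.032 in the other 3 lists. The lists differ in level. Above the 40th percentile lay 7 of 8 genes described here, 17 of 37 other tight junction genes, 15 of 15 adherens junction genes and 10 of 13 regulators and proteases.

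Of 15 adherens junction genes on the array, 5 fell over the course by the straight line and none rose, with a median of -0.12. All 15 lay above the 40th percentile of mean level, where 15.6% of genes were lower and 19.3% higher by the same test. Across the 60 to 80 min boundary 7 were lower and none higher, where 18.3% and 19.4% of genes above that level were. Those that fell over the course included Nectin4 (-0.51) and Nectin3 (-0.40), adhesion molecules that pair across cells, Epcam (-0.37), a membrane protein that binds claudin-7, and Ctnna1 (-0.20), the link of cadherins to actin. Their adjusted p were 0.00218, 0.00859, 0.0113 and 0.03. Cdh1, E-cadherin itself, had -0.12 with an adjusted p of 0.0862. Among 13 regulators and proteases tied to the epidermal barrier, 10 lay above the 40th percentile. By the straight line 4 fell and 3 rose, where 10.8% of all genes were lower and 13.1% higher. Across the boundary 2 were lower and 5 higher, where 13% and 13.4% of all genes were. Of genes above the 40th percentile, 18.3% and 19.4% were. Prss8, a membrane-anchored serine protease needed for the skin barrier, fell by 0.74, 1.67 fold (adjusted p = 0.000868). Ripk4, a kinase of keratinocyte differentiation, rose by 0.38 (adjusted p = 0.0071). Snai2, a repressor of epithelial junction genes, fell by 0.32 (adjusted p = 0.0258) and Klf4, a transcription factor of barrier formation, by 0.31 (adjusted p = 0.00817). Neither was called across the boundary (adjusted p = 0.397 for Snai2 and 0.102 for Klf4). From the same list, dim Zeb1 (percentile 24.5 of mean level) rose by 0.14 (adjusted p = 0.0366). It was higher across the boundary by 0.095 (adjusted p = 0.0352). Snai1 and Zeb2 were not called by the line or across the boundary.

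The genes whose course over the 13 arrays was most like that of a member, among 7356 compared by Pearson r as a description, were other genes for Cldn1 than for Cldn4. For Cldn1 (1437932_a_at) they were Dmkn (r = 0.990), which encodes a secreted epidermal protein, Tgoln1 (0.985), Atp7a (0.983), a copper transporter, Ero1a (0.980) and Dsc2 (0.980), a desmosomal cadherin. For Cldn4 they were P2rx4 (r = 0.960), an ATP-gated channel, Ier2 (0.959), Ints12 (0.953), Cxadr (0.952) and Endod1 (0.950). Cldn4 was closer to F11r (0.932, rank 32) and Cldn3 (0.929, rank 39) than to Cldn1 (0.835, rank 440). The arrays follow each other in time and share their scaling, so that many genes correlate in this way.

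The labelled cell type was checked against its markers. Krt14 and Krt5 were at the top of the array, at percentiles 100 and 99.95 of mean level, and 8 of 9 keratinocyte markers passed the 40th percentile, with summed intensities of 60054 to 63400 from 80 min, against 58732 to 61656 up to 60 min. From 80 min, 4 of the 9 were higher (Krt5, Trp63, Itga6 and Col17a1) and none lower, where 19.4% and 18.3% of genes above the 40th percentile were. By the straight line Krt5 was higher and none lower, where 19.3% and 15.6% of genes above that level were. Whether the rise of these markers had a part in the lower claudin levels was not tested. Melanocyte markers were bright, with 4 of 4 above the 40th percentile and sums of 5305 to 6033 from 80 min, against 5607 to 6456, and none was called. Endothelial markers passed that level in 0 of 7 genes, fibroblast markers in 1 of 6 and immune markers in 1 of 5, and among these 3 lists Col3a1 alone was called, as lower from 80 min. The Trp63 probe set of the highest mean was higher from 80 min by 0.26 ± 0.0429 (SE, limma, adjusted p = 0.000306). Whether it also reads the transcript of the fusion was not tested.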

How the data were processed

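Total RNA was extracted with Trizol and hybridised as biotinylated cRNA, per the labels' protocols. Linear intensities of 22690 probe sets were used as deposited, and the software that summarised and scaled them was not given in the sources used here. The medians of the arrays lay between 237.4 and 251.5, and such scaling removes change shared by most transcripts. The untreated array is named by its title, since its description also mentions tamoxifen. The platform table gave 1 gene to 20393 probe sets, several to 691 and none to 1606, and only the first entered tests. Symbols of 20364 were updated through RefSeq (GRCm38.p6), used for names and neighbours.

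Values were used as log2(intensity + 16), on which folds of dim genes are understated. Fits were made with limma 3.58.1 in R 4.3.3 (eBayes with an intensity trend, two-sided, Benjamini-Hochberg over all 20393 probe sets, threshold 0.05), for a straight line in hours, a difference across the 60 to 80 min boundary, a spline with 3 degrees of freedom, and the window of 180 to 240 min against 20 to 80 min. Adjusted p-values are from these limma fits unless a permutation is named. Fits were tested on simulated data. The members and gene lists were chosen with earlier results of these data known, and all p-values were adjusted over the whole table, except those of the 21 gene pairs. Named list genes are those past the straight-line threshold with the largest slope, up to 4 a list. Cdh1, Marveld2, Zeb1, Snai1, Zeb2 and the marker genes were named after their values were seen. The pair tests were added after seeing the data. Precision is limited by the small number of arrays, with a residual SD about the line that had a median of 0.0789 on the log2 scale. Alternatives covered the pseudocount, filter, normalization, moderation, array weights, a Gapdh 3-prime to 5-prime covariate, the time model and each array left out.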

Additional observations from a re-analysis of the deposited data

Results flagged for a closer look

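Of 30 sets of arrays tested (15 probe sets, up to 60 min and from 80 min), 2 held an array far from the others by Dixon's criterion, where chance gives about 1 in 20. For Cldn7, the 200 min array (intensity 804) was the highest of the 9 from 80 min, with a gap to the next of 0.510 of the whole range on the log2 scale. For Cldn1 (1437932_a_at), the 60 min array (intensity 2673) was the lowest of the 4 up to 60 min, with a gap of 0.894 of the range.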

How the results depend on the processing

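Of 1364 single probe set values under the alternatives, 1220 kept their direction and side of the threshold, 87 lost the call, 38 gained one and 19 changed sign. The lower calls across the 60 to 80 min boundary of the 11 probe sets above the lowest 25% held in every alternative run for that result. The dim F11r probe set (1436374_x_at) lost its lower call there in some alternatives, with an adjusted p up to 0.15. Cldn8 lost its call without the 40 min array (adjusted p = 0.0558), and the F11r straight line lost its call without the untreated array (adjusted p = 0.0667). With each array left out, the straight line called 8 to 11 members lower and 1 higher (15.3 to 23.6% of all called), the boundary 11 to 12 lower and 0 (without the 40 min array) to 1 higher (17.6 to 26.5%), the spline 8 to 11 (7.27 to 17.7%) and the late window 2 to 11 lower (4.27 to 19.0%). The pair count was 6 (without the untreated or the 40 min array) to 14. With 1 probe set per gene above the 40th percentile, where Cldn8 is left out by construction, the straight line called 0 higher (39.9% of all called), the boundary 7 lower and 0 higher (41.7%), the spline 6 (24.9%) and the late window 0 higher (26.3%). Array weights raised the share called by the spline to 31.2% and gave 11 lower in the late window (23.9%). Robust moderation gave 3 lower there, the Gapdh covariate 3 (7.48%), and leaving out the 200 and 220 min arrays a share of 2.97%. The cause of these differences was not tested.

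With the boundary as a block beside the slope, limma called 0 members lower and 0 higher (0% of all). At an unadjusted p under 0.05, 3 members were lower and 1 higher, where 16.2% of all probe sets passed in either direction. From 80 to 240 min alone limma called 0 and 0 (0.0147%), with 2 and 1 unadjusted beside 11.9% of all. Up to 60 min alone it called 0 and 0 (0.142%), with 3 and 0 unadjusted beside 7.45% of all. The fit with the block used all 13 arrays, while those from 80 min and up to 60 min used 9 and 4. Slopes per hour that changed sign were, with the block, 0.0087 (Cldn1 1438851_x_at), -0.033 (Cldn1 1438850_at), 0.055 (Cldn7), 0.041 (Ocln) and 0.042 (F11r 1436374_x_at). From 80 min alone they were 0.017 (Cldn1 1438851_x_at), -0.028 (Cldn1 1438850_at), 0.012 (Cldn4), 0.047 (Cldn7), 0.037 (Ocln), 0.000045 (F11r 1424595_at) and 0.035 (F11r 1436374_x_at). Up to 60 min alone they were -0.089 (Cldn1 1438850_at), 0.15 (Cldn7), 0.089 (Ocln) and 0.12 (F11r 1436374_x_at). With each array left out, the slopes of the dim Cldn1 probe sets ran from -0.017 (without the 220 min array) to 0.0024 (1438851_x_at, without the untreated array) and from -0.0049 (without the 220 min array) to 0.012 (1438850_at). No paired analysis was possible because each time has 1 array and the labels give no replicate numbers.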
